A study of Mus musculus with 2 samples.

Results

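HES and HEY proteins are basic helix-loop-helix (bHLH) transcriptional repressors, and their mouse genes were followed here as 8 members: Hes1, Hes3, Hes5, Hes6, Hes7, Hey1, Hey2 and Heyl. They were chosen by gene name in GENCODE mouse M21 (GRCm38), matched to the deposited gene identifiers without their version, and all 8 were found among 43346 annotated mouse genes. The data were total RNA-seq of forebrain from healthy B6NCrl mouse embryos at embryonic day 11.5, with no treatment and no engineered allele given in the labels. There was 1 group of 2 libraries, numbered as biological replicates, which pooled the forebrains of 109 embryos (replicate 1) and 88 embryos (replicate 2) of mixed sex. Each library was made from 10 ng of RNA above 200 nucleotides with spike-in RNAs added, so the design holds no comparison between conditions.

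In the developing brain, a Notch ligand on one cell triggers cleavage of the receptor on its neighbour, and the freed receptor domain joins RBPJ and Mastermind-like proteins on DNA to switch on HES and HEY genes. Hes1 and Hes5 are the classical effectors that hold neural progenitors back from differentiating by repressing proneural genes such as Neurog2. Hes6 differs from both: it is expressed in differentiating neural cells and can counteract Hes1.

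HES proteins recruit Groucho/TLE corepressors through the tetrapeptide Trp-Arg-Pro-Trp near the end of the protein, and HEY proteins are known to differ from them there. The last 39 bases of each coding sequence, stop codon included, are printed 5′ to 3′ on the coding strand because they carry that family difference; they were read from the GENCODE M21 transcripts of GRCm38. Capitals mark 4 codons in which the codon of Trp or Tyr is followed by any codon, a codon of Pro and that of Trp.
Hes1-201: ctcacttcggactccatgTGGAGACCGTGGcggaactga
Hes3-201: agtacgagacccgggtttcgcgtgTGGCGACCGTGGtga
Hes5-201: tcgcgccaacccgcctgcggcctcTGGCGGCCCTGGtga
Hes6-201: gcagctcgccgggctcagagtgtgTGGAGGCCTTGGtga
Hes7-201: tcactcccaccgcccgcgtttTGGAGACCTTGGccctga
Hey1-201: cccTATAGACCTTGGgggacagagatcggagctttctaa
Hey2-201: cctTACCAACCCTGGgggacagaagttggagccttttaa
Heyl-201: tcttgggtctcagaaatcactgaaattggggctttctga
All 5 HES genes held the codons of Trp-Arg-Pro-Trp, followed by 0 to 2 further codons before the stop. Hey1 held those of Tyr-Arg-Pro-Trp, with 7 codons between them and the stop, and Hey2 matched with a codon other than Arg at the second place, also 7 codons before the stop. The pattern was not found in these letters of Heyl.

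Hes5 and Hes6 carried most of the family's RNA in E11.5 forebrain, Hey1 and Hes1 followed at nearly equal length-scaled levels, and Heyl and Hey2 were low. Hes3 and Hes7 were near the limit of detection. Of the 8 genes, 6 reached 1 TPM (a transcript level scaled by length and by library) in both libraries, against 32.9% of all annotated genes and 58.6% of 21474 protein-coding genes. Summed over the 8 genes, the level was 569.1 TPM in replicate 1 and 568.4 TPM in replicate 2. The HES genes held 89.7% of that sum in replicate 1 and 88.7% in replicate 2. Because these are bulk libraries, fewer cells of a type and less RNA per cell cannot be told apart.

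Expected counts of annotated genes, each rounded to a whole number, summed to 23165223 in replicate 1 and 33597022 in replicate 2. Spike-ins held 13.0% and 12.7% of the TPM in replicates 1 and 2, so the TPM given for mouse genes are lower than they would be over mouse genes alone. The forebrain label was met by its markers: 10 of 10 listed forebrain genes were detected, at means from 13.7 to 147 TPM. They summed to 643.9 and 612.9 TPM in replicates 1 and 2. Of 14 listed HOX genes of the posterior axis, 0 were detected, and 5 of the 14 had 0 TPM in both libraries. Markers of other cells were also present. All 10 endothelial genes (184.0 and 177.4 TPM summed in replicates 1 and 2), 7 of 8 pericyte and smooth muscle genes (62.3 and 57.4 TPM) and all 9 mesenchyme genes (718.8 and 730.3 TPM) were detected.

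**Figure D1:**
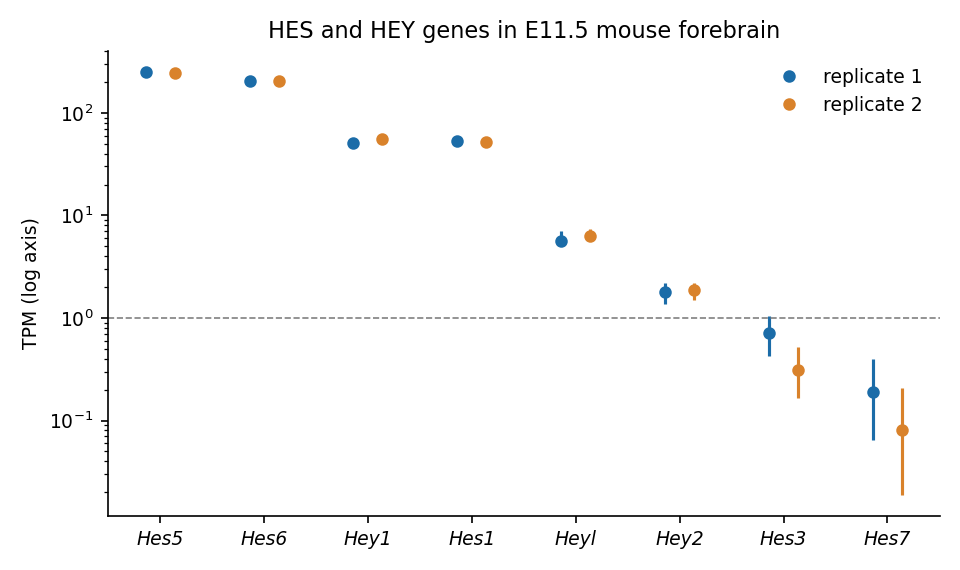
Level of each HES and HEY gene in TPM on a log axis, with 1 point per library (replicate 1 and replicate 2); vertical lines are the credibility bounds deposited with the values, and the dashed line marks 1 TPM. Hes5 and Hes6 lie above 200 TPM in both libraries, and Hes3 and Hes7 lie below 1 TPM in both.

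Hes5 (ENSMUSG00000048001.7, chr4:154960923-154962371, plus strand, GRCm38) had 250.9 TPM in replicate 1 and 247 TPM in replicate 2, a mean of 249 ± 2.66 TPM (SD, n = 2). It ranked 535 of 21474 protein-coding genes by mean TPM and alone made up 44.1% of the family's summed TPM in replicate 1 and 43.5% in replicate 2. Hes1 (ENSMUSG00000022528.7, chr16:30064384-30067796, plus strand), the other main Notch effector of neural progenitors, had 53.0 TPM in replicate 1 and 52.5 TPM in replicate 2. The level of Hes5 was thus 4.74 times that of Hes1 in replicate 1 and 4.71 times in replicate 2. The deposited credibility bounds of Hes5 (233.7 to 250.9 TPM in replicate 1, 233.8 to 248.2 TPM in replicate 2) were far from those of Hes1 (48.2 to 55.9 TPM and 48.9 to 54.6 TPM). The level the authors give for Hes5 lies near the upper end of these bounds in both libraries.

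Hes6 (ENSMUSG00000067071.4, chr1:91411483-91414038, minus strand) had 206 TPM in replicate 1 and 204 TPM in replicate 2, with a mean of 205 ± 1.09 TPM (SD, n = 2). Hes5 exceeded it by 1.22 times in replicate 1 and 1.21 times in replicate 2, and the bounds of the genes did not overlap in either library. Hes6 in turn stood at 3.89 times the level of Hes1 in both libraries. Together Hes5 and Hes6 held 80.2% of the family's summed TPM in replicate 1 and 79.4% in replicate 2.

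Among the HEY genes, known for roles in the heart and vessels as well as in neural precursors, Hey1 led. It had 51.1 TPM in replicate 1 and 56.0 TPM in replicate 2 (ENSMUSG00000040289.4, chr3:8663359-8667256, minus strand; mean 53.6 ± 3.43 TPM, SD, n = 2). Hey1 and Hes1 could not be put in order: Hey1 stood at 0.966 times Hes1 in replicate 1 and at 1.07 times in replicate 2. Heyl (ENSMUSG00000032744.4, chr4:123233556-123249875, plus strand), known from vascular smooth muscle as a target of Notch3, had 5.63 TPM in replicate 1 and 6.26 TPM in replicate 2. Hey2 (ENSMUSG00000019789.8, chr10:30832359-30842801, minus strand), which acts in the ventricle and in arteries, had 1.81 TPM in replicate 1 and 1.86 TPM in replicate 2. Hey1 therefore exceeded Heyl by 9.08 and 8.94 times and Hey2 by 28.3 and 30.1 times in replicates 1 and 2. The endothelial, pericyte and mesenchyme markers given above were detected in the same libraries, and their part in the levels of the HEY genes was not tested.

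Hes3, a gene of the midbrain-hindbrain boundary that helps maintain the isthmic organizer (ENSMUSG00000028946.6, chr4:152285972-152291662, minus strand), had 0.72 TPM in replicate 1 and 0.31 TPM in replicate 2, from 19 and 12 expected counts. Hes7, an oscillating gene of the somite segmentation clock (ENSMUSG00000023781.2, chr11:69120404-69124055, plus strand), had 0.19 TPM in replicate 1 and 0.08 TPM in replicate 2, from 5 and 3 expected counts. The bounds of the genes lay apart in replicate 1 (0.428 to 1.05 TPM for Hes3, 0.0640 to 0.400 TPM for Hes7) but overlapped in replicate 2 (0.167 to 0.518 TPM and 0.0190 to 0.206 TPM). Of 8 genes listed for the midbrain-hindbrain boundary, chosen after the levels of Hes3 were seen, 2 were detected, and the list summed to 25.4 TPM in replicate 1 and 20.9 TPM in replicate 2. Most of that sum came from the detected genes, Fgf8 (17.6 and 14.7 TPM in replicates 1 and 2) and Gbx2 (5.38 and 3.93 TPM). Which region gave the RNA of Fgf8 and Gbx2 was not tested, so the sum is no measure of boundary tissue. The other 6, En1, En2, Pax2, Pax5, Pax8 and Wnt1, were each below 1 TPM in both libraries. Of 8 genes listed for paraxial mesoderm and somites, 4 were detected, with a sum of 41.8 TPM in replicate 1 and 40.1 TPM in replicate 2. Lfng made up most of the paraxial mesoderm and somite sum (32.8 and 31.3 TPM in replicates 1 and 2); it encodes a modifier of Notch that neural tissue also expresses. The part of such tissue in the levels of Hes3 and Hes7 was not tested.

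Among 107 listed bHLH genes, the members spanned nearly the whole range. Hes5 ranked 3 and Hes6 ranked 4 by mean TPM, between Id4 (255 and 254 TPM in replicates 1 and 2), an inhibitor of bHLH activators, and Tcf3 (205 and 189 TPM), which encodes the E proteins that proneural factors pair with. Hey1 ranked 15 and Hes1 ranked 16. Heyl ranked 47, Hey2 65, Hes3 74 and Hes7 87.

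**Figure D2:**
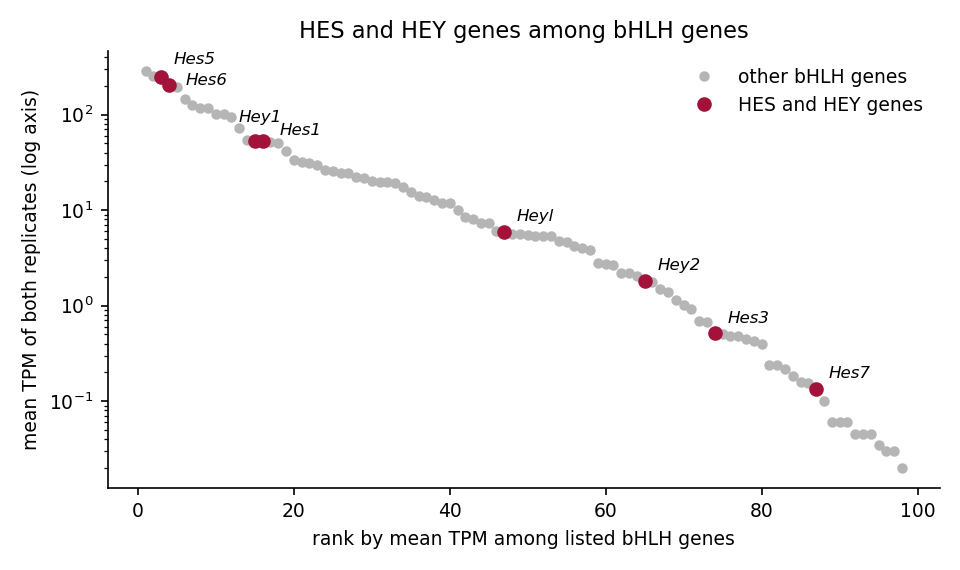
Mean TPM of both libraries on a log axis against rank among 107 listed bHLH genes; the 98 genes above 0 are drawn, with HES and HEY genes in red. Hes5 and Hes6 lie at ranks 3 and 4, Hey1 and Hes1 at ranks 15 and 16, and the other 4 members at ranks 47 to 87.

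The upstream Notch pathway was broadly present; the genes of each list were ordered by the mean TPM of both libraries. All 5 ligand genes were detected, led by Dll1 (66.8 and 76.6 TPM in replicates 1 and 2) and Dll3 (39.8 and 34.4 TPM), with Jag2 the lowest (2.60 and 2.09 TPM). All 4 receptor genes were detected, led by Notch1 (53.9 and 55.9 TPM) and Notch2 (20.9 and 21.6 TPM), with Notch4 the lowest (6.89 and 4.59 TPM). Notch3 (21.4 and 20.8 TPM) was next to Notch2, above it in replicate 1 and below it in replicate 2. Hey1 thus stood at 0.949 times Notch1 in replicate 1 and at 1.00 times in replicate 2. Heyl stood at 0.263 and 0.302 times Notch3.

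All 14 genes for processing of ligands and receptors were detected; the highest were Ncstn, a subunit of gamma-secretase (92.8 and 84.6 TPM), and Mfng, a glycosyltransferase acting on Notch (85.6 and 89.0 TPM), and the lowest was Psen2, another gamma-secretase subunit (4.89 and 4.52 TPM). All 6 genes of the nuclear complex and its regulators were detected, from Snw1 (122.7 and 116 TPM) and Nrarp (49.0 and 55.3 TPM), a feedback inhibitor that is itself a Notch target, to the coactivator gene Maml3 (5.60 and 5.98 TPM). Rbpj itself, which like Notch3 and Tle2 was chosen after its values were seen, had 43.7 and 46.5 TPM. All 6 Groucho/TLE genes were detected, led by Aes (239 and 215 TPM), which encodes a short family member, and Tle1 (50.6 and 48.8 TPM), with Tle6 the lowest by mean (6.16 and 3.16 TPM), although Tle2 (5.68 and 6.41 TPM) was below it in replicate 1.

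Among 8 listed proneural and neuronal bHLH genes, 7 were detected, and their repression by HES proteins was not tested. Neurog2 (70.1 and 74.6 TPM in replicates 1 and 2) was the highest, and Atoh1, a factor of the hindbrain rhombic lip, was the lowest (0.07 and 0.05 TPM). Hes5 stood at 3.58 times Neurog2 in replicate 1 and at 3.31 times in replicate 2. Hes6 stood at 2.94 and 2.74 times Neurog2. The ID genes, whose products block bHLH activators by binding their partners, were all detected and ranged from Id1 (40.4 and 42.0 TPM) to Id4 and Id3 (301 and 278 TPM). Of 4 related repressor genes outside the members, 3 were detected, led by Bhlhe40 (4.36 and 5.15 TPM) and Helt (4.43 and 3.54 TPM), while Hes2 had 1 expected count in replicate 1 and 0 in replicate 2.

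The protein-coding transcript held most of the TPM of every member. The deposited tables list 21 transcripts for the 8 genes, 8 of them protein-coding, and Hes3, Hes7 and Hey2 have a single transcript each. Of the 21, 10 held 5% or more of their gene's TPM in either library, and 2 of these 10 were non-coding. Both belong to the most abundant members, Hes6 and Hes5.

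For Hes6, the coding transcript Hes6-201 held 82.6% of the gene's TPM in replicate 1 and 85.4% in replicate 2. Hes6-202, annotated as a retained-intron transcript and 238 bases longer, held 14.5% and 12.8%. Its level of 29.9 TPM in replicate 1 and 26.1 TPM in replicate 2 had overlapping bounds (24.9 to 33.1 TPM and 22.4 to 28.8 TPM). These libraries measured total RNA, and how much of this signal came from unspliced precursor was not tested.

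Hes5-201 held 92.4% of Hes5 in both libraries. The non-coding Hes5-202 is only 350 bases long, and held 7.61% of the TPM in replicate 1 and 7.60% in replicate 2 but 1.73% of the expected counts in each. The coding transcripts held 91.4% and 95.1% of Hes1, 94.3% and 96.1% of Hey1, and 100% and 97.0% of Heyl in replicates 1 and 2.

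**Figure D3:**
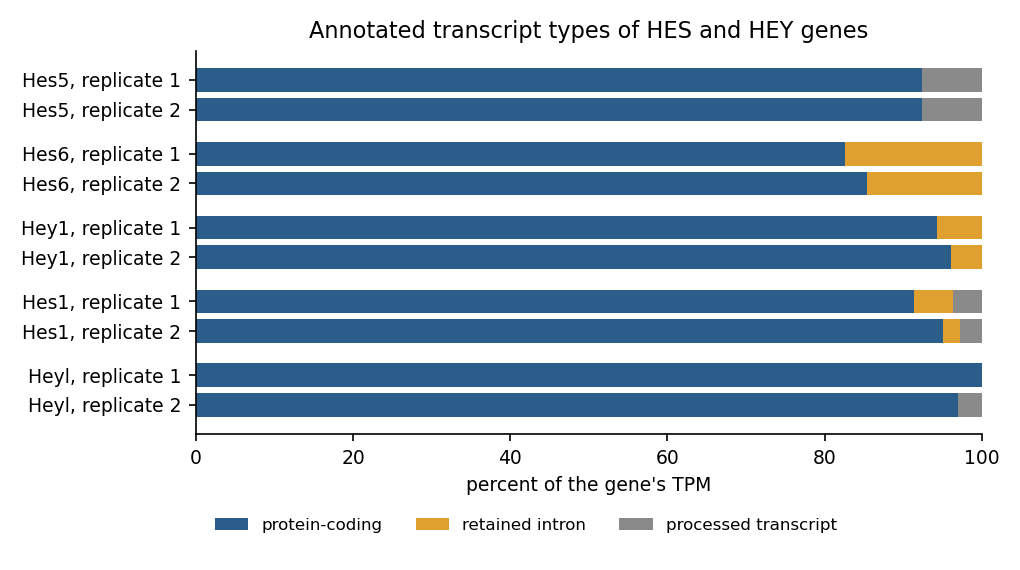
Percent of each gene's TPM assigned to protein-coding, retained-intron and processed transcripts, with 1 bar per library for the 5 members that have several annotated transcripts. The coding share is lowest for Hes6, at 82.6% in replicate 1 and 85.4% in replicate 2.

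Hes5 and Hes7 also share exon sequence with genes on the opposite strand. Gm20421 overlaps 433 of 1363 exon bases of Hes5 (31.8%) and was itself given 11.3 TPM in replicate 1 and 14.5 TPM in replicate 2. 9130213A22Rik overlaps 234 of 1809 exon bases of Hes7 (12.9%) and was given 0.31 and 0.06 TPM. Strand handling is not given in the sources used here, so reads of these pairs may not have been told apart and both levels are uncertain.

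Promoter windows of RefSeq (GRCm38.p6, 300 bases running from upstream of a gene's start to just past it) were at hand for 4 members, Hes5, Hes6 (with a window at each of its 2 starts), Hes7 and Hey2. The window of Hes5 and both windows of Hes6 are shown because these are the most abundant members and because transcript levels tell the starts of Hes6 apart. The sequences run 5′ to 3′ on the gene's strand, and capitals mark the letters GTGGGAA, a consensus bound by RBPJ, on either strand.
Hes5, chr4:154960673-154960972, plus strand: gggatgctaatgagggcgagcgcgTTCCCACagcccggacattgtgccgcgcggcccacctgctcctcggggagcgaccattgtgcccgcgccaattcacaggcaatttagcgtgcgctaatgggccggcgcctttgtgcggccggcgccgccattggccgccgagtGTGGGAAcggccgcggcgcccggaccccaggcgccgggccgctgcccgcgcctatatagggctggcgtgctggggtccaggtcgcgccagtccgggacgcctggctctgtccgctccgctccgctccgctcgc
Hes6, chr1:91413173-91413472, minus strand: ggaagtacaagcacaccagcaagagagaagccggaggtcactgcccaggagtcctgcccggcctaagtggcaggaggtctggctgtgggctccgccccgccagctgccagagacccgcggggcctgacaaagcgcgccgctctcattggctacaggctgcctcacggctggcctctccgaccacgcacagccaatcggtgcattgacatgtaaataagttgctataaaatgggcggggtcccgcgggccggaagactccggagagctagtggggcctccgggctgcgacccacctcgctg
Hes6, chr1:91413989-91414288, minus strand: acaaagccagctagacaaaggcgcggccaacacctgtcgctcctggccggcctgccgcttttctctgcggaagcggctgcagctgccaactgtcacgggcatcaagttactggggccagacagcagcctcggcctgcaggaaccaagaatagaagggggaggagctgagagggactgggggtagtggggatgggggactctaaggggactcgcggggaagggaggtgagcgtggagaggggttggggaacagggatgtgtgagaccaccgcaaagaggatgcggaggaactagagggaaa
The start in the Hes5 window is that of Hes5-201, and the window held the letters at 226 and 83 bases before the start, the farther one on the opposite strand. Neither Hes6 window held them. The nearer Hes6 window, chr1:91413173-91413472, belongs to the 5′ end shared by Hes6-201 and Hes6-202, which together had 199.9 TPM in replicate 1 and 200.5 TPM in replicate 2. The farther one belongs to the start of Hes6-204, which had 0 expected counts in both libraries, with upper bounds of 2.50 and 1.92 TPM.

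For Hey2 and Hes7 only the 30 bases around each match are shown, from windows chr10:30842734-30843033 (minus strand) and chr11:69120203-69120502 (plus strand).
Hes7, 180 bases before the start: cctcccctcacTTCCCACatttggggctag
Hey2, 207 bases before the start: gcgcggtggcaTTCCCACgcctctgccaac
Hey2, 4 bases before the start: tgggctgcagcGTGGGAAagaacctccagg
In Hey2 the letters began 207 and 4 bases before the RefSeq start, and in Hes7 180 bases before it; the RefSeq start lies 18 bases from the nearest transcript start of Hey2 in the deposited annotation and 49 bases from that of Hes7. In all, 3 of the 5 windows, from 3 of the 4 genes, held GTGGGAA, against 6.38% of 32851 RefSeq windows of that length. The shorter TGGGAA is part of GTGGGAA and so had to be in the same 3 windows. It was in no other of the 5, and 25.6% of all windows held it. The GC content of the 5 windows was 72.7% for Hes5, 65.0% and 62.0% for Hes6, 63.0% for Hes7 and 72.0% for Hey2, against a median of 52.7% over all windows. A match describes letters only: Hes5, at a mean of 249 TPM, and Hes7, at 0.135 TPM, both held it, and Hes6, at 205 TPM, did not.

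The libraries compare 2 pools of embryos and no conditions, so their difference shows only how far each level repeats. Of 7 members with 10 or more expected counts summed over the libraries, 1 (Hes3) differed by more than 1.5-fold, against 14.0% of 18297 genes. The log2 ratio of replicate 2 over replicate 1 lay between -0.02 and 0.15 for the other 6, and its median was 0.04 over the 7 members and 0.01 over all genes tested.

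Hes3 was 2.22 times higher in replicate 1, a log2 ratio of -1.15 with an exact 95% counting interval from -2.37 to -0.07. At that depth the difference is common: 45.6% of genes with 10 to 100 counts passed 1.5-fold, with an SD of 1.11 in the log2 ratio. The deposited bounds of Hes3 overlapped between the libraries. None of the 6 midbrain-hindbrain boundary genes tested passed 1.5-fold, but Wnt1 (log2 ratio 0.51) and Pax2 (-0.51) came near it. For paraxial mesoderm and somites, 3 of 7 genes passed (Mesp2, Tbx6 and Meox2), all higher in replicate 1. These 3 had 10 to 100 counts summed, where 45.6% of all genes passed. The 14 HOX genes summed to 1.01 TPM in replicate 1 and 0.22 TPM in replicate 2. The part of these genes' tissues in the difference of Hes3 was not tested.

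Hey1 had a log2 ratio of 0.15, with an interval from 0.07 to 0.24 that covers counting error only and leaves out 0. The SD of the log2 ratio over genes with 1000 to 10000 counts was 0.14, so the difference of Hey1 was about as large as that spread. Hes1 had a ratio of 0.04 (-0.08 to 0.15), Heyl 0.12 (-0.07 to 0.31), Hey2 0.04 (-0.42 to 0.51) and Hes5 -0.02 (-0.08 to 0.04), and each of these intervals holds 0.

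**Figure D4:**
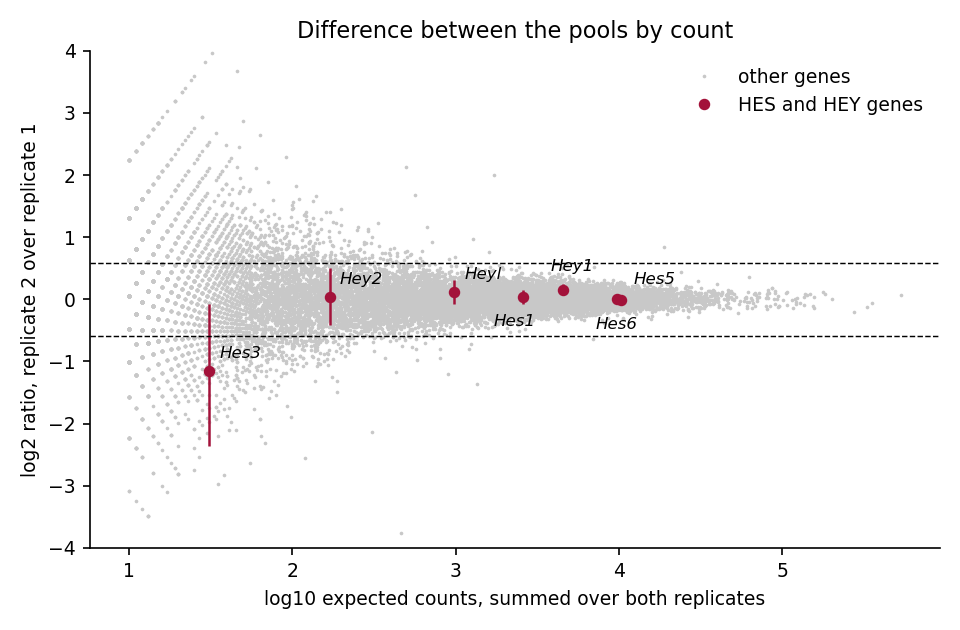
Log2 ratio of replicate 2 over replicate 1 against log10 of the expected counts summed over both replicates, for genes with 10 or more counts; red points are HES and HEY genes with exact 95% counting intervals, dashed lines mark 1.5-fold, and 95 of 18297 genes lie outside the axis. Hes3 lies at -1.15 among low counts, and the other 6 members lie between the dashed lines.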

How the data were processed

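Total RNA of 2 forebrain pools was sequenced. The deposited tables hold expected counts, TPM and FPKM per gene and per transcript, which the authors computed on mm10 with GENCODE M4, per the deposited text notes. Per the file headers they also hold a posterior mean TPM and credibility bounds, whose level the sources do not state; FPKM served only as an alternative for the count of members detected. No aligner, quantifier or strand setting is given in the sources used here.

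Gene names and coordinates came from GENCODE M21 (GRCm38), which matched 42462 of 43346 gene identifiers, and promoter windows from RefSeq GRCm38.p6. Library sizes left out numeric and spike-in entries, the spike-ins being 5.66% (replicate 1) and 5.49% (replicate 2) of expected counts. Expected counts were rounded to whole numbers and scaled by TMM (edgeR 4.0.16, R 4.3.3; factors 1.00 and 0.997), with a prior of 0.5 counts. Counting intervals are exact 95% Clopper-Pearson intervals (SciPy 1.17.1); no molecular identifiers are described, so they cover counting error only. With 1 group there was no test and no p-value. The SD of 2 pools measures only the spread between them.

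The members and gene lists were chosen with earlier results of these data known. All members were named, the 2 highest and the lowest gene of each pathway list, the bHLH neighbours of a member, and transcripts with 5% or more of their gene. A gene that this rule names is not reported here. Alternatives were other scalings (DESeq2 1.42.0 size factors among them), count minimums, priors, level thresholds, units and motif letters.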

Additional observations from a re-analysis of the deposited data

How the results depend on the processing

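Of 80 alternative values, 60 stayed within the limits set for them and 20 moved. For the summed level, the TPM ratios and the percent held by a transcript, the limit was the SD of the 2 pools. Leaving out either pool cannot move a mean of 2 beyond that SD, so those values could only stay. The values that stayed also include both alternative motifs, of which TGGGAA is part of GTGGGAA and CACNAG is a different motif. The count of 60 is therefore no measure of robustness. The summed level of the members, 569 TPM on average, became 554 TPM with posterior mean TPM and 652 TPM when rescaled without spike-ins and numeric entries. Without a count minimum, 2 members (Hes3 and Hes7) passed 1.5-fold, against 28.8% of all genes; with a minimum of 100 counts, 0 members did, against 2.76% of all genes. The log2 ratio of Hes3 ranged from -1.19 to -1.05 over the alternatives. By share of expected counts, which are not scaled by length, Hes5 held 36.5% of the family against 43.8% by TPM. Hes6 held 34.25% against 36.0%, so the lead of Hes5 over Hes6 was smaller by counts. Hey1 held 16.0% against 9.42%, Heyl 3.45% against 1.05% and Hey2 0.598% against 0.323%, while Hes1 held 9.11% against 9.27%. Without replicate 2, 27 of the 28 pairs of members kept their order, since Hey1 was then below Hes1. By expected counts 9 and not 10 transcripts reached 5% of their gene. In place of GTGGGAA, the letters CACNAG, searched on both strands and chosen after seeing the data, were in 2 of the 5 promoter windows (Hes6 and Hes7), against 42.5% of all. Depth limits Hes3 and Hes7, with 8 to 31 counts summed over the libraries. No paired analysis was possible because there is a single group.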
